A study of Mus musculus with 10 samples.

Results

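Tmem119, Selplg, Gpr34, Siglech and Adgrg1 are 5 genes for proteins on the surface of resting microglia, the resident macrophages of the brain. They were taken by gene symbol from the single cell count tables, which list 18292 symbols in all, and a gene absent from a library's table was counted as 0. All 5 had UMIs (unique molecular identifiers, 1 per captured transcript) in each of the 10 libraries, and all 5 passed the filter on low counts.

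The series compared microglia of C57BL/6 mice, sorted as CD11b high and CD45 intermediate cells and sequenced as 10x Genomics libraries of transcript 3′ ends, in 5 groups of 2 libraries. The adult group held microglia isolated directly from brains of mice 10 to 15 weeks old. The *in vitro* group held microglia floating in the medium of mixed glial cultures, which were set up from the cortex of pups at postnatal day 2 and collected at day 22. The slice groups held microglia from brain slices of pups at postnatal day 1 to 4, kept in culture for 1 day, 1 week or 3 weeks, with slices pooled where a sort needed more cells. Adult and cultured cells therefore differ in the age of the donor as well as in culture. The labels name no transgene or drug, and they do not say whether the 2 libraries of a group came from separate animals, so the p-values measure the spread between these libraries.

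Microglia keep their resting program through signals of the surrounding brain, TGF-β and CSF1R ligands among them, and lose much of it when taken out of the tissue. Tmem119 is a transmembrane protein used to tell microglia from blood-derived macrophages. Selplg encodes PSGL-1, the mucin that binds selectins and is found on most leukocytes. Gpr34 is a G protein-coupled receptor for lysophosphatidylserine. Siglech is a sialic acid-binding lectin that signals through the adaptor DAP12 (Tyrobp) and also marks plasmacytoid dendritic cells. Adgrg1, also called GPR56, is an adhesion G protein-coupled receptor that couples to Gα12/13 and binds transglutaminase 2 and collagen III.

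The sorted cells carried microglia genes in every group. After the limits that the study's methods set on mitochondrial share, genes and UMIs per cell, 61 to 3799 cells and 385373 to 39689540 UMIs remained per library. The 12 microglia and macrophage markers were detected in every library, at 61479 to 63541 CPM (UMIs per 1000000 UMIs of the library) in adult, 29661 to 32669 *in vitro*, 17538 to 19887 in slice 1 day, 29737 to 35052 in slice 1 week and 43142 to 51317 in slice 3 weeks. The 10 neutrophil markers summed to 178 to 211 CPM in adult but to 7831 to 22555 CPM in slice 1 day. In slice 1 week they summed to 1033 to 40385 CPM, *in vitro* to 22.8 to 30.8 and in slice 3 weeks to 59.8 to 80.7. The 10 monocyte markers summed to 6.18 to 8.96 CPM in adult and 534 to 748 in slice 1 day. In slice 1 week they summed to 345 to 1149 CPM. The 10 neuron markers summed to 1.61 to 2.65 CPM in adult and 365 to 560 in slice 1 week. Astrocyte markers summed to 151 to 162 CPM in adult and 19.4 to 36.3 in slice 1 week. The 10 markers of border macrophages summed to 4927 to 5123 CPM *in vitro*, against 139 to 177 CPM in adult and 210 to 675 CPM in the slice libraries, and 2322 of 2417 and 2587 of 2682 *in vitro* cells had over 0.2% of their UMIs from them. The 10 markers of plasmacytoid dendritic cells, the other cells known for Siglech, had 4 to 6 members at 0 in each library and summed to 326 to 360 CPM in adult, 750 to 891 *in vitro*, 328 to 403 in slice 1 day, 335 to 349 in slice 1 week and 441 to 634 in slice 3 weeks. Of the 4 that passed the filter on counts, 3 were called higher and 1 lower in slice 3 weeks than in adult. Over all genes, 17.9% were called higher and 17.5% lower. The part of these markers in the Siglech values was not tested. No pair of the 10 libraries shared more than 23 cell barcodes, or 2.94% of the smaller library.

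Positions are those of RefSeq on GRCm38 (mm10, the build named in the submitters' processing notes). Tmem119 (ENSMUSG00000054675) lies on the minus strand of chromosome 5 at 113793729 to 113800396. Selplg (ENSMUSG00000048163) lies beside it on the same strand, at 113817798 to 113832528. The gap between them is 17401 bases and holds 0 protein coding genes. Gpr34 (ENSMUSG00000040229) lies on the plus strand of chromosome X at 13622650 to 13640859, where it overlaps Cask on the opposite strand. Siglech (ENSMUSG00000051504) lies on the plus strand of chromosome 7 at 55768154 to 55779448, and Adgrg1 (ENSMUSG00000031785) on the plus strand of chromosome 8 at 94974756 to 95014208.

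The table of RefSeq promoters (build GRCm38.p6) held Siglech and Adgrg1, 2 of the 5 genes, and their sequences are shown for that reason. Tmem119, Selplg and Gpr34 were not matched. Each was searched in the 250 bases before the transcription start, on both strands, for motifs of factors known in microglia: GAGGAA (PU.1 type), TGTGGT (RUNX), CAGAC (SMAD, the factors of TGF-β signalling) and TATTTATA (MEF2 type), and no letters of 1 motif contain another. Capitals mark the matches. The stretches run 5′ to 3′ on the plus strand and stop at the base before an annotated exon of the gene.
Siglech, chr7:55767934-55768153: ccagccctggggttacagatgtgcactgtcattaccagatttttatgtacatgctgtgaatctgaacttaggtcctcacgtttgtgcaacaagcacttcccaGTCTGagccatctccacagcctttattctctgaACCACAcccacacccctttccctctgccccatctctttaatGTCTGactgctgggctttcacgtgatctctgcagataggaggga
Adgrg1, chr8:94984149-94984370: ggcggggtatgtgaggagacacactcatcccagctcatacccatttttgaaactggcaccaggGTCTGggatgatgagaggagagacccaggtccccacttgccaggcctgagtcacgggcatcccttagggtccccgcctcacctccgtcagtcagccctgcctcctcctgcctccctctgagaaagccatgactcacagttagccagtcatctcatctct

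The Siglech window held 2 matches to CAGAC, 148 and 74 bases before the start, and 1 match to TGTGGT at 115 bases, all on the minus strand. The Adgrg1 window shown held 1 match to CAGAC, 187 bases before its start. A second listed start of Adgrg1, at 94977109, had 2 matches to CAGAC, 115 and 102 bases before it, in an exon of another Adgrg1 transcript, and is not shown. CAGAC was present in 42.2% of the 32851 promoter windows of the same length, TGTGGT in 14.0%, GAGGAA in 23.3% and TATTTATA in 1.56%. The matches are a description of these letters and not of binding.

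Each of the 5 genes was highest in adult microglia and lower in every cultured group. Culture and the age of the donor cannot be told apart in these comparisons. The difference was smallest for Gpr34, and Siglech and Adgrg1 were at 0.385 CPM or less *in vitro*. The values that follow are counts summed over the cells of a library, in CPM after TMM scaling (edgeR's correction for library composition), with the SD over 2 libraries. In such sums, fewer cells with a transcript and fewer transcripts per cell cannot be told apart, and values per cell are given after them.

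Tmem119 had 2661 and 2668 CPM in the adult libraries. It had 50.004 and 23.6 CPM *in vitro*, 100.1 and 44.8 CPM in slice 1 day, 215 and 228 CPM in slice 1 week, and 535 and 389 CPM in slice 3 weeks. The groups did not overlap except *in vitro* and slice 1 day, where the lower slice library was below the higher *in vitro* library. The means were 2665 ± 5.29 CPM in adult, 36.8 ± 18.7 *in vitro* and 462 ± 103.5 in slice 3 weeks, so that 17.3% of the adult level was measured after 3 weeks in slices and 1.38% *in vitro*.

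Selplg had 4852 and 4563 CPM in adult, 93.5 and 94.7 CPM *in vitro*, 217 and 92.9 CPM in slice 1 day, 357 and 407 CPM in slice 1 week, and 928 and 871 CPM in slice 3 weeks. The second slice 1 day library was level with the *in vitro* pair, and the first was higher than either. Neutrophils, which carry PSGL-1, were present in the slice 1 day libraries, and their part in the Selplg values is given further on. Slice 3 weeks held 19.1% of the adult level and *in vitro* held 2.00%.

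Gpr34 had 2629 and 2794 CPM in adult, 140 and 130 CPM *in vitro*, 191 and 154 CPM in slice 1 day, 484 and 563 CPM in slice 1 week, and 757 and 615 CPM in slice 3 weeks. None of the 5 groups overlapped. Gpr34 was at a higher share of its adult level than the other four in each cultured group, with 4.99% *in vitro*, 6.37% in slice 1 day, 19.3% in slice 1 week and 25.3% in slice 3 weeks. As a share of the UMIs of the 5 genes it was 22.6% and 24.999% in the adult libraries and 49.3% and 52.4% *in vitro*.

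Siglech had 1169 and 885 CPM in adult, 54.3 and 30.2 CPM in slice 1 day, 63.2 and 102.3 CPM in slice 1 week, and 119 and 203 CPM in slice 3 weeks. *In vitro* it had 12 and 2 UMIs of 33957132 and 39689540, which is 0.385 CPM (95% exact Poisson interval 0.199 to 0.673) and 0.0561 CPM (0.00680 to 0.203). Pooled over the 2 libraries, the adult level was 5083 times the *in vitro* level (95% exact conditional interval 3029 to 9299, for counting error only). It was 2765 times the level of *in vitro* replicate 1 alone and 18988 times that of replicate 2 alone, whose 2 UMIs are under the floor of 3 counts, so that the spread between the libraries is wider than the interval. None of the 5 groups overlapped.

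Adgrg1 had 305 and 268 CPM in adult, 12.8 and 4.02 CPM in slice 1 day, 7.91 and 10.2 CPM in slice 1 week, and 42.2 and 36.6 CPM in slice 3 weeks. The slice 1 week values rest on 8 and 4 UMIs, with intervals of 3.41 to 15.6 CPM and 2.79 to 26.2 CPM. *In vitro* it had 6 and 2 UMIs, and the pooled adult level was 2434 times that level (1234 to 5640). Against replicate 1 alone it was 1513 times and against replicate 2 alone, with 2 UMIs under the floor, 5195 times. Slice 1 day and slice 1 week overlapped.

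**Figure D1:**
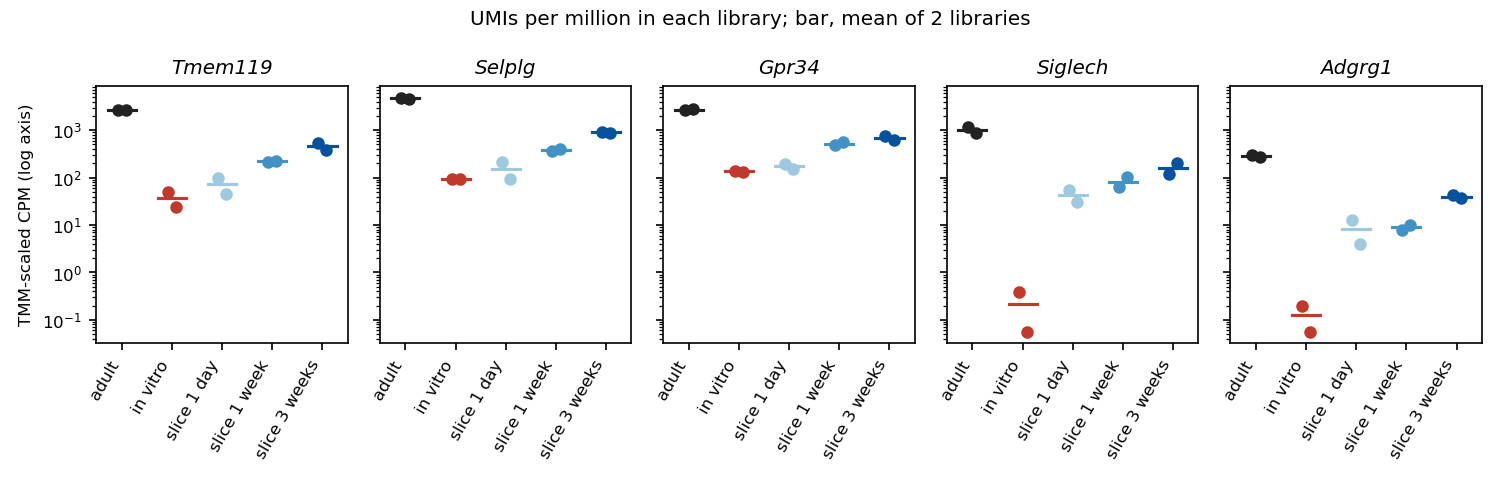
CPM (TMM scaled, log axis) of the 5 genes in each of the 10 libraries, by group; a point is a library and a bar the mean of 2 libraries. The adult points are highest in each panel, and the *in vitro* points of Siglech and Adgrg1 lie at 0.385 CPM or less.

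Against adult, all 5 genes were called lower in each of the 4 cultured groups by edgeR's quasi-likelihood test (false discovery rate, FDR, under 0.05 over 12157 genes and a fold change over 1.5). The share of all genes called lower was 28.5% *in vitro*, 25.3% in slice 1 day, 13.6% in slice 1 week and 17.5% in slice 3 weeks. The 4 comparisons share the adult libraries. *In vitro*, the log2 fold change was −4.33 ± 0.19 (SE) for Gpr34, −5.64 ± 0.36 for Selplg, −6.18 ± 0.47 for Tmem119, −11.11 ± 0.56 for Adgrg1 and −12.18 ± 0.66 for Siglech, beside a median of −0.11 over all genes. The largest of the 5 FDR values in that comparison was 2.4e-06, for Tmem119.

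In slice 1 day the log2 fold change ran from −3.97 ± 0.19 for Gpr34 to −5.26 ± 0.41 for Adgrg1, with −5.21 ± 0.45 for Tmem119. In slice 1 week it ran from −2.38 ± 0.18 for Gpr34 to −5.05 ± 0.53 for Adgrg1. In slice 3 weeks it was −1.98 ± 0.17 for Gpr34, −2.39 ± 0.31 for Selplg, −2.53 ± 0.40 for Tmem119, −2.67 ± 0.41 for Siglech and −2.87 ± 0.35 for Adgrg1, with FDR values of 2.1e-05 to 0.00070. Differences between the genes were not tested. The median over the 5 genes was −6.18 *in vitro*, −4.93 in slice 1 day, −3.63 in slice 1 week and −2.53 in slice 3 weeks.

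**Figure D2:**
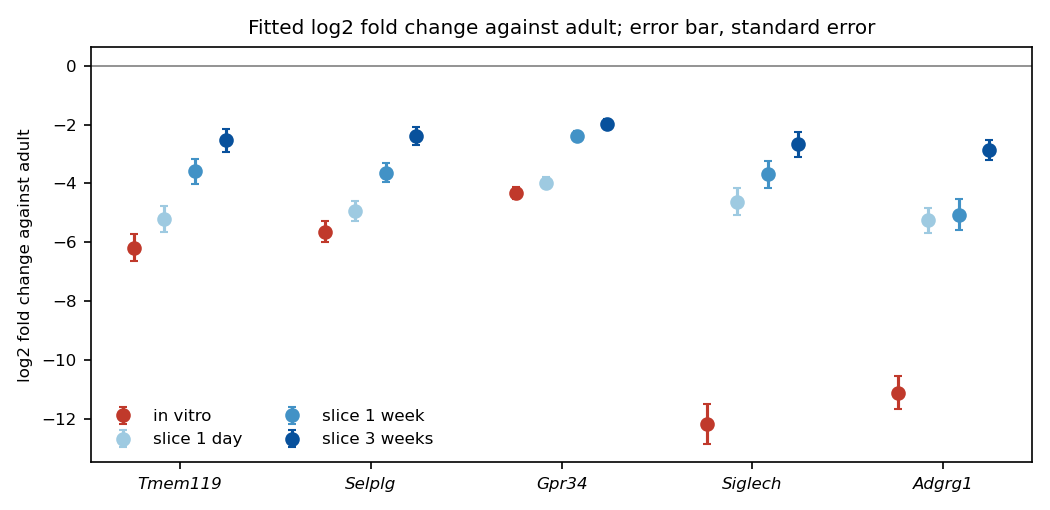
Fitted log2 fold change against adult of the 5 genes in the 4 cultured groups; a point is the estimate of the fit over 10 libraries and a bar its standard error. Siglech and Adgrg1 *in vitro* lie at −12.18 and −11.11, and the slice 3 weeks points lie between −1.98 and −2.87.

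One adult library and one slice 3 weeks library carry the study label TST11200, and the other 8 libraries carry TST11247. Within TST11200 the log2 difference between slice 3 weeks and adult was −2.31 for Tmem119, −2.39 for Selplg, −1.80 for Gpr34, −3.29 for Siglech and −2.86 for Adgrg1. Within TST11247 it was −2.78, −2.39, −2.18, −2.12 and −2.87 for the same genes. Each gene was lower in slice 3 weeks under both labels. The other groups were under 1 label.

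The libraries differed in UMIs per cell, with medians of 3257 and 1858 for adult cells, 12858 and 13966 for *in vitro* cells and 5266 to 8335 for slice cells. Counted as UMIs per cell with no scaling for depth, Tmem119 had 9.56 and 5.87 in adult, 0.644 and 0.314 *in vitro*, 0.737 and 0.429 in slice 1 day, 1.47 and 1.46 in slice 1 week, and 3.59 and 2.23 in slice 3 weeks. On that scale the median of all genes was 2.04 higher (log2) *in vitro* than in adult, and 1.05 higher in slice 3 weeks. The 5 genes were still called lower than adult in the 4 cultured groups. Of the 12157 genes, 571 were called lower *in vitro* and 424 in slice 1 day. The numbers were 164 in slice 1 week and 335 in slice 3 weeks. The log2 fold changes were −2.14 for Gpr34 and −4.01 for Tmem119 *in vitro*. In slice 3 weeks they were −0.86 for Gpr34 (FDR 0.044) and −1.41 for Tmem119.

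With time in slices the 5 genes rose but stayed below their adult level. From 1 day to 3 weeks all 5 rose, where 13.9% of all genes were called higher. The log2 fold change was 2.69 ± 0.40 for Tmem119, 2.55 ± 0.31 for Selplg, 1.99 ± 0.17 for Gpr34, 1.96 ± 0.41 for Siglech and 2.39 ± 0.39 for Adgrg1, with FDR values of 8.2e-05 to 0.0063. Siglech lost its call without slice 1 day replicate 2 (log2 1.58). The neutrophil markers summed to 7831 to 22555 CPM in slice 1 day and to 59.8 to 80.7 CPM in slice 3 weeks. Without neutrophil and monocyte marked cells all 5 genes were still called higher, as were 1718 of 11975 genes.

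From 1 day to 1 week, Tmem119 (log2 1.62 ± 0.41, FDR 0.031), Selplg (1.305 ± 0.31, FDR 0.025) and Gpr34 (1.60 ± 0.17, FDR 0.0020) rose, where 4.91% of all genes were called higher. Siglech differed by 0.93 ± 0.46 (FDR 0.23) and Adgrg1 by 0.20 ± 0.70 (FDR 0.90), and slice 1 week held 12 Adgrg1 UMIs in all. Tmem119 and Selplg lost their calls without slice 1 day replicate 2 and without either slice 1 week library. The estimates there were 0.81 to 1.65. Gpr34 kept its call in those fits. With every cell thinned to 1000 UMIs before summing, the estimate for Selplg was 0.18 (FDR 0.87) and that for Tmem119 was 1.21 (FDR 0.21). Selplg also lost its call as UMIs per cell (1.02, FDR 0.098) and in a fit of the 2 groups alone (1.34, FDR 0.061), and Siglech passed with no filter on low counts (0.85, FDR 0.0027).

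From 1 week to 3 weeks, Selplg rose by 1.24 ± 0.31 (FDR 0.043), where 2.23% of all genes were called higher. The others had positive estimates that did not pass, with 1.06 ± 0.40 for Tmem119 (FDR 0.15), 0.39 ± 0.17 for Gpr34 (FDR 0.22), 1.02 ± 0.45 for Siglech (FDR 0.22) and 2.19 ± 0.59 for Adgrg1 (FDR 0.058). Adgrg1 passed with a replicate block (2.31, FDR 0.034), with the DESeq2 Wald test (2.16, FDR 0.0050), in a fit of the 2 groups alone (2.14, FDR 0.015), as UMIs per cell (2.08, FDR 0.0019) and with no filter on low counts (2.32, FDR 3.0e-10). Tmem119 passed with thinned cells (1.57, FDR 0.038) and with no filter (1.18, FDR 7.9e-08), and Siglech with no filter (1.15, FDR 5.9e-06). The Selplg call was lost as UMIs per cell (1.15, FDR 0.064) and with the study label as a covariate (1.195, FDR 0.067). It was also lost without neutrophil and monocyte marked cells, where the estimate was as large (1.24, FDR 0.067). Leaving out any 1 library of slice 1 week or slice 3 weeks lost the call as well, with estimates of 1.16 to 1.42.

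*In vitro* microglia were below slice microglia of 3 weeks for all 5 genes, where 19.9% of all genes were called lower. The log2 fold change was −2.34 ± 0.17 for Gpr34, −3.26 ± 0.32 for Selplg, −3.65 ± 0.42 for Tmem119, −8.24 ± 0.54 for Adgrg1 and −9.51 ± 0.62 for Siglech. Against slice 1 week all 5 were also called lower, where 10.0% of all genes were, with estimates from −1.95 ± 0.17 for Gpr34 to −8.49 ± 0.64 for Siglech. The Adgrg1 call in that comparison was lost without slice 1 week replicate 1 (log2 −6.22) and with thinned cells (log2 −6.18, FDR 0.16).

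Against slice 1 day, 2 of the 5 genes were called lower *in vitro*, as were 18.6% of all genes. Siglech fell by 7.56 ± 0.60 (log2, FDR 1.6e-05) and Adgrg1 fell by 5.85 ± 0.61 (FDR 7.7e-05). Tmem119 differed by −0.96 ± 0.39 (FDR 0.075), Selplg by −0.71 ± 0.30 (FDR 0.087) and Gpr34 by −0.35 ± 0.17 (FDR 0.13), and these did not pass. Tmem119 and Selplg passed without slice 1 day replicate 2 (log2 −1.40 and −1.16), and Tmem119 also passed without *in vitro* replicate 1 (log2 −1.53). Tmem119 passed as well with a replicate block (FDR 0.031), the DESeq2 Wald test (FDR 0.041), library size alone (FDR 0.043) and no filter on low counts (FDR 9.3e-05), and Selplg with library size alone (FDR 0.041) and thinned cells (FDR 0.010). Counted as UMIs per cell, the differences were −0.28 for Tmem119 (FDR 0.58) and −0.012 for Selplg (FDR 0.98), and Gpr34 changed sign to 0.29 (FDR 0.56).

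The order of the group means was therefore adult, slice 3 weeks, slice 1 week, slice 1 day and *in vitro* for each of the 5 genes. For Adgrg1 the order of slice 1 week and slice 1 day turned as UMIs per cell (log2 −0.14), with thinned cells (−0.63) and without slice 1 day replicate 2 (−0.58). Neighbours in that order that did not differ in the test were slice 3 weeks and slice 1 week for Tmem119, Gpr34, Siglech and Adgrg1, slice 1 week and slice 1 day for Siglech and Adgrg1, and slice 1 day and *in vitro* for Tmem119, Selplg and Gpr34.

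Single cells were compared after each cell of at least 1000 UMIs was thinned at random to 1000 UMIs, which left out 66 to 205 cells of the adult libraries and 0 to 2 cells of the others. In adult, 93.7% and 93.6% of cells had a Tmem119 UMI, 99.0% and 98.9% a Selplg UMI, 92.1% and 94.1% a Gpr34 UMI, 70.5% and 62.0% a Siglech UMI and 28.4% and 26.3% an Adgrg1 UMI. In slice 3 weeks the shares were 37.5% and 26.7% for Tmem119, 52.1% and 50% for Selplg, 48.7% and 41.6% for Gpr34, 10.9% and 16.8% for Siglech and 3.47% and 3.797% for Adgrg1. The adult and slice 3 weeks shares did not overlap for any of the 5.

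*In vitro*, 4.47% and 2.20% of thinned cells had a Tmem119 UMI, 8.85% and 8.17% a Selplg UMI, and 12.2% and 11.0% a Gpr34 UMI. Siglech was seen in 0.0827% and 0% of cells, and Adgrg1 in 0 of 2417 and 0 of 2682 thinned cells (upper limits of the exact 95% interval 0.153% and 0.137%). In slice 1 day, Tmem119 was seen in 7.92% and 4.64% of cells and Gpr34 in 13.5% and 11.3%. Before thinning, Gpr34 was seen in 40.2% and 51.2% of slice 1 day cells and Tmem119 in 26.6% and 25.7%.

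Slice cells with over 2% of UMIs from neutrophil markers should lack Tmem119, Gpr34 and Siglech. Whether UMIs of these genes in them came from free RNA was not tested, and no doublet caller was run. Of 68 and 110 such thinned cells in slice 1 day, 0 and 1 had a Tmem119 UMI, 0 and 7 a Gpr34 UMI and 0 and 0 a Siglech UMI. Their median depth before thinning was 2224 and 4925 UMIs, against 6986 and 8868 UMIs in the other cells of those libraries. The Gpr34 share in these cells of replicate 2 was 6.36% (95% exact interval 2.60 to 12.7%), against 11.9% in the other cells of that library.

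**Figure D3:**
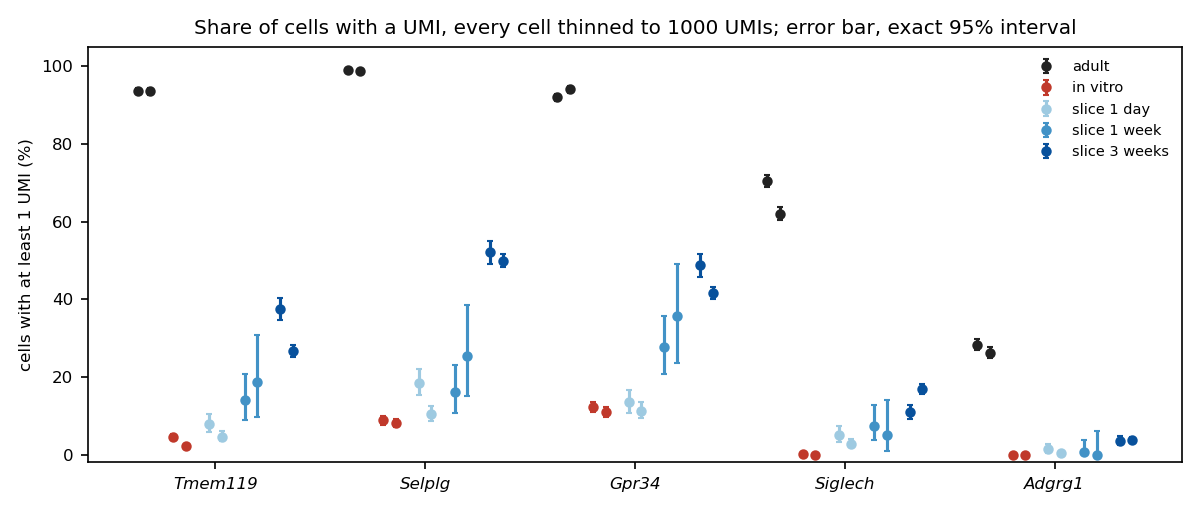
Share of cells with at least 1 UMI of each gene after thinning each cell to 1000 UMIs; a point is a library and a bar its exact 95% binomial interval, for counting error only. The adult shares of Selplg lie near 99% and those of slice 3 weeks at 52.1% and 50%, and Adgrg1 is at 0 *in vitro*.

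Per cell, the 5 genes together had a median of 13 UMIs per 1000 in both adult libraries, 2 in both slice 3 weeks libraries and 0 in both *in vitro* libraries. The mean number of the 5 genes detected in a thinned cell was 3.79 ± 0.063 (SD, n = 2) in adult, 1.46 ± 0.098 in slice 3 weeks, 0.755 ± 0.13 in slice 1 week, 0.380 ± 0.12 in slice 1 day and 0.235 ± 0.030 *in vitro*. With 2 libraries against 2, an exact two-sided permutation test cannot give a p below 0.333, so none was made. At least 3 of the 5 genes were detected in 96.1% and 96.0% of adult cells, 20.4% and 17.6% of slice 3 weeks cells and 0.0827% and 0.0373% of *in vitro* cells. After 3 weeks in slices, 21.4% and 25.5% of cells had none of the 5 and 0.260% and 0.214% had all 5.

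**Figure D4:**
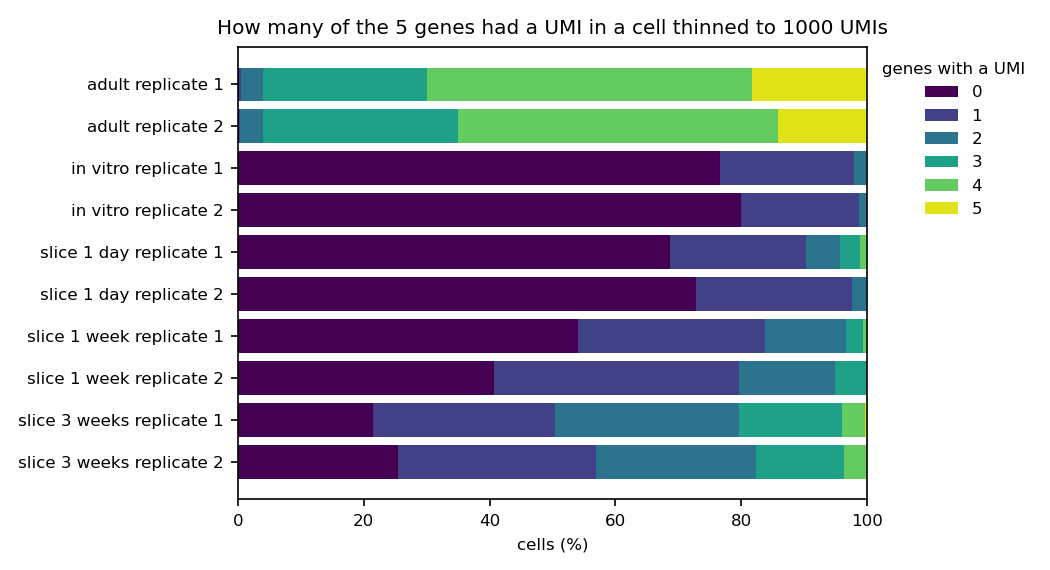
Number of the 5 genes with a UMI in a thinned cell; each bar is a library and each segment the share of its cells with 0 to 5 of the genes. Adult cells mostly have 3 or more, and *in vitro* cells mostly have none (76.6% and 79.9% of cells).

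The first slice 1 day library held a small set of cells with many of these transcripts. Of its 518 thinned cells, 22 had at least 3 of the 5 genes, against 1 of 1014 cells in the second library. Those 22 cells, which the 5 genes themselves pick out, held 28 of 56 Tmem119, 46 of 172 Selplg, 36 of 103 Gpr34, 17 of 31 Siglech and 6 of 7 Adgrg1 UMIs left after thinning. Before thinning they held 30.1% of the library's Tmem119 UMIs, 25.4% of Selplg, 19.9% of Gpr34, 37.2% of Siglech and 49.0% of Adgrg1, which is 24 of 49 UMIs. P2ry12, a purinergic receptor of resting microglia that was not used to pick them, had a UMI in 90.9% of the 22 cells and in 9.88% of the others. Cx3cr1, the fractalkine receptor, had one in 86.4% of them and in 27.0% of the others. Their median depth was 4480 UMIs, against 6523 in the others. The first slice 1 day library shared 1 barcode with each adult library. The erythroid markers summed to 3463 CPM in the same library and to 0.734 CPM in the second. The same markers summed to 1852 CPM in adult replicate 1 and to 0 in adult replicate 2. Whether the 22 cells are slice microglia was not tested.

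Neutrophil marked cells were 68 and 110 cells in slice 1 day, 24 and 1 in slice 1 week and 0 in the other libraries. In the thinned cells of slice 1 day they had Selplg at 721 and 436 CPM, against 273 and 97.3 in the other cells of the same libraries, while Tmem119 had 0 and 9.09 in them, against 124 and 55.3 in the others. Without these cells and cells with over 0.2% of UMIs from monocyte markers, the log2 fold change of slice 1 day against adult was −5.14 for Selplg in place of −4.93, −5.10 for Tmem119 in place of −5.21 and −5.07 for Adgrg1 in place of −5.26. The 5 genes were still called lower in the 4 comparisons with adult. Of 11975 genes in that fit, 3091 were called lower *in vitro* and 2853 in slice 1 day. The numbers were 1377 in slice 1 week and 1883 in slice 3 weeks. UMIs of S100a8, a neutrophil gene, were found in 40.3% and 89.3% of the slice 1 day cells with fewer than 3 of the 5 genes, and their part in the values was not tested.

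Slice 3 weeks cells with at least 2 UMIs of Gpnmb, a lysosomal glycoprotein of activated macrophages, had less of all 5 genes in both libraries. In replicate 1, 140 such cells had 150 Tmem119, 279 Selplg, 450 Gpr34, 28.6 Siglech and 7.14 Adgrg1 CPM, against 650, 1050, 808, 135 and 38.9 in the 1002 others. In replicate 2, 370 such cells had 130, 349, 368, 73.0 and 10.8, against 458, 951, 659, 221 and 41.7 in 3357 others. The Adgrg1 values in the Gpnmb cells rest on 1 and 4 UMIs, and the Siglech value of replicate 1 on 4 UMIs. Summed over the 5 genes, the levels were 914 and 930 inside and 2682 and 2332 outside. The Gpnmb cells were the deeper ones before thinning, with medians of 6924 and 7184 UMIs against 6011 and 5118. *In vitro*, where 1408 and 2050 cells passed the same limit, the sums were 244 and 208 inside and 323 and 301 outside. No adult cell passed it. The limit was set on the UMIs before thinning, so that a deeper cell could pass it more easily, and the levels of the 5 genes are those after thinning. Cells with a neutrophil or monocyte share above the limits were left out.

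**Figure D5:**
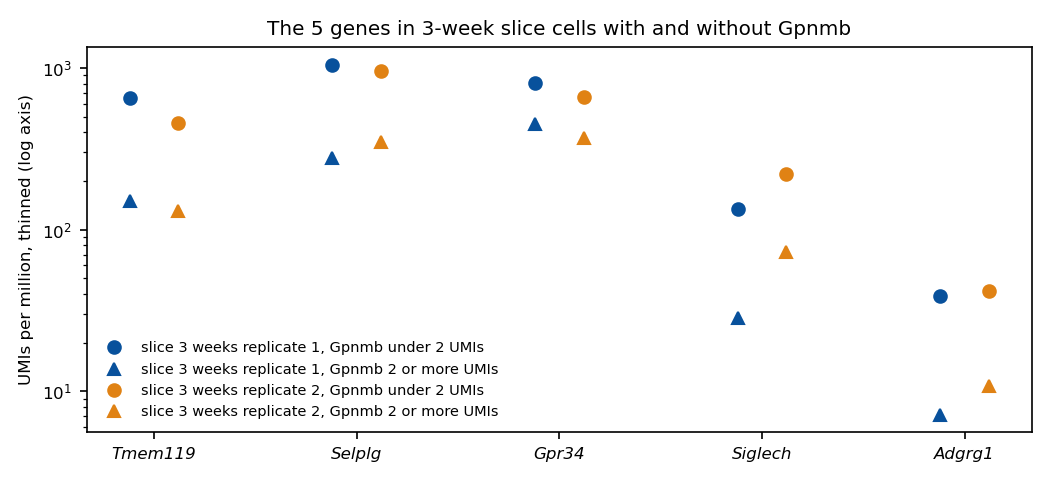
CPM (log axis) of the 5 genes after thinning in slice 3 weeks cells with 2 or more Gpnmb UMIs before thinning (triangles) and with fewer (circles), by library. The triangles lie below the circles of the same library for each gene, for example 150 against 650 for Tmem119 in replicate 1.

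Cells with at least 3 of 12 proliferation genes before thinning were 167 and 233 in slice 3 weeks. Tmem119 in them was 850 and 515 CPM, against 544 and 420 in the other cells, and Selplg was 1377 and 1052, against 883 and 881. Both genes were higher in these cells in both libraries. Gpr34 was 766 and 459 in them, against 764 and 641, with no common direction. Siglech was 168 and 227, against 114 and 205, and Adgrg1 was 18.0 and 38.6, against 37.9 and 38.6. With 1 value per library and gate, these differences were not tested.

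Within a slice 3 weeks library, 66.4% and 69.8% of cells with a Tmem119 UMI also had a Selplg UMI, against 43.6% and 42.8% of cells without one. For Siglech the shares were 15.97% and 24.1%, against 7.91% and 14.2%. In adult, 70.6% and 61.9% of Tmem119 cells had a Siglech UMI, against 70.1% and 64.5% of the others. These values were all taken at 1000 UMIs per cell from the same library, and sparse counts limit them.

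Among 30 other genes of resting microglia, 30 were called lower *in vitro*, 29 in slice 1 day, 29 in slice 1 week and 26 in slice 3 weeks against adult, where 28.5%, 25.3%, 13.6% and 17.5% of all genes were, with medians of −3.36, −2.76, −1.38 and −0.96 (log2). The same medians for the 5 surface genes were −6.18, −4.93, −3.63 and −2.53. P2ry12 went from 6942 ± 645 CPM in adult to 51.3 ± 12.3 *in vitro* and 898 ± 113 in slice 3 weeks. Cx3cr1 went from 2110 ± 215 to 430 ± 70.9 and 1075 ± 115 CPM, and both were called lower in each cultured group. From slice 1 day to slice 3 weeks, 24 of the 30 rose and 0 fell, where 13.9% of all genes were called higher and 12.8% lower.

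Tyrobp, the adaptor of Siglech, was called lower than adult in none of the 4 cultured groups. It had 3134 ± 278 CPM in adult, 3713 ± 29.1 *in vitro* (log2 0.24 ± 0.14, FDR 0.17) and 6018 ± 492 in slice 3 weeks, where it rose by 0.94 ± 0.14 (FDR 0.00059). It was at 2677 ± 226 CPM in slice 1 day and 4031 ± 135 in slice 1 week, and like Siglech it rose from slice 1 day to slice 3 weeks (1.17 ± 0.14, FDR 0.00044). Of the 10 genes of the Siglec family and DAP12 signalling, 5 were called lower *in vitro* (Siglece, Cd33, Siglecf, Siglecg and Mag) and 2 higher (Siglec1, the sialoadhesin of macrophages, and Hcst, the adaptor DAP10). In slice 3 weeks 6 were lower and 3 higher. Over all genes 22.4% were called higher *in vitro* and 17.9% in slice 3 weeks against adult, beside the 28.5% and 17.5% called lower. The list's median was −1.14 *in vitro* and −1.01 in slice 3 weeks. Cd33 went from 294 ± 21.2 CPM in adult to 77.9 ± 10.9 *in vitro* and 103 ± 3.73 in slice 3 weeks. Siglec genes resemble each other, and the default counting of Cell Ranger, which the study's methods name, leaves out reads that map to several genes.

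Selectins and the enzymes that modify PSGL-1 formed a list of 11, of which 9 were tested. Sele and Selp did not pass the filter on counts. *In vitro* 4 were lower (Gcnt1, B4galt1, St3gal6 and Tpst2) and 2 higher (Fut7 and St3gal4), and in slice 3 weeks 4 were lower (Gcnt1, St3gal6, Tpst1 and Tpst2) and 1 higher (Fut7), with medians of −0.31 and −0.74. Over all genes, 28.5% were lower and 22.4% higher *in vitro*, and 17.5% and 17.9% in slice 3 weeks. St3gal6, a sialyltransferase that helps build selectin ligands, went from 498 ± 31.4 CPM in adult to 6.47 ± 1.93 *in vitro*, 66.2 ± 7.21 in slice 1 day and 76.1 ± 19.3 in slice 3 weeks. Tpst2, a tyrosine sulfotransferase, went from 376 ± 50.7 to 103 ± 10.0, 103 ± 2.41 and 154 ± 19.1 CPM. Gcnt1, which makes the core 2 branch of O-glycans, went from 68.4 ± 1.63 to 16.02 ± 0.63 and 34.6 ± 4.42 CPM *in vitro* and in slice 3 weeks. Fut7, the fucosyltransferase of selectin ligands, stayed under 4 CPM in each group mean.

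For the ligand system of Gpr34, 7 of 10 listed genes were tested, and the lysophosphatidylserine receptors P2ry10 and Gpr174 did not pass the filter. *In vitro* 3 were higher (Gpr132, Gnai2 and Gnb1) and 3 lower (Abhd16a, Abhd12 and Lpcat3), and in slice 3 weeks 0 were higher and 2 lower, with medians of 0.00 and 0.11 and the same shares over all genes as for the selectin list. Gpr132 was at 0.0732 CPM in adult, under the floor of 3 counts of both adult libraries. Abhd12, a lipase that degrades lysophosphatidylserine, went from 894 ± 91.8 CPM in adult to 423 ± 33.2 *in vitro* and was at 1253 ± 98.0 in slice 3 weeks (log2 0.49 ± 0.16, under the fold limit). Abhd16a, a lipase that makes it, went from 82.1 ± 8.48 to 43.7 ± 1.79 and 53.1 ± 9.42 CPM and was called lower in both.

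Of 16 other adhesion G protein-coupled receptors, 7 were tested. *In vitro* 2 were higher and 0 lower, and in slice 3 weeks 1 was higher and 1 lower, with medians of −0.03 and −0.06. The shares called over all genes in both comparisons are those given for the Siglec list. Adgre1, the F4/80 antigen of macrophages, rose *in vitro* from 301 ± 5.50 to 532 ± 49.8 CPM (log2 0.82 ± 0.19, FDR 0.0039) and was at 289 ± 75.1 CPM in slice 3 weeks. The other gene called higher *in vitro* was Adgre5, at 0.0732 CPM in adult, under the floor of 3 counts of both adult libraries. Of the 12 partners of Adgrg1 and genes of Gα12/13 signalling, 11 were tested, with 2 higher and 3 lower in both comparisons and medians of −0.51 and 0.16. Tgm2 (transglutaminase 2) was at 30.7 ± 2.99 CPM in adult, 18.1 ± 0.86 *in vitro* (FDR 0.062) and 4.13 ± 2.73 in slice 3 weeks, where it fell by 2.77 ± 0.36 on the log2 scale. The tetraspanins Cd9 and Cd81, which associate with it, fell *in vitro* by 2.64 ± 0.16 and 3.47 ± 0.19. In slice 3 weeks Cd81 fell by 0.60 ± 0.17 (FDR 0.019), and Cd9 differed by 0.27 ± 0.15 (FDR 0.19). Col3a1, the collagen that binds Adgrg1, did not pass the filter.

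The genes whose pattern over the 10 libraries was most like the mean of the 5 were, in order, Abhd6, Rhob, F11r, Slc44a2, Tia1, Ppcdc, P2ry13, Mef2c, Scoc and Pros1. Likeness was Pearson's r of log2 CPM, from 0.987 to 0.978, among 3645 other genes with a mean log2 CPM of at least 5, and the 10 libraries fall into 5 groups. The range of these genes over the libraries was 1.37 (log2) for Tia1 to 5.75 for P2ry13, while that of the 5 genes was 4.42 for Gpr34 to 12.46 for Siglech. Set against the mean of the other four, Adgrg1 ranked 9 of 3646 (r = 0.98), Tmem119 ranked 32 (0.96), Selplg 62 (0.94), Gpr34 66 (0.94) and Siglech 142 (0.92). Tmem119 and Selplg, which lie side by side, had r = 0.99 over the libraries, as did Tmem119 and Gpr34, which lie on different chromosomes.

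The genes around Tmem119 and Selplg differed from them in size or direction of change. Iscu, on the lower side, fell in the 4 cultured groups by 0.59 to 1.15 (log2) and was called lower in each. Coro1c, 9910 bases beyond Selplg, rose by 1.60 to 2.18 in each (24.9% of all genes were called higher in slice 1 day, and 1822 of the 12157 in slice 1 week), from 28.7 CPM in adult to 124 *in vitro*. Sart3, beyond Iscu, passed in none, with 17.2 CPM in adult and 17.8 *in vitro*. Ssh1, beyond Coro1c, was called higher *in vitro* (1.08) and in slice 1 week (1.31) and did not pass in slice 1 day (0.21) or slice 3 weeks (0.07). Around Gpr34, Cask went from 61.8 CPM in adult to 6.40 *in vitro*, 6.03 in slice 1 day, 7.99 in slice 1 week and 11.4 in slice 3 weeks and was called lower in each. Cask overlaps Gpr34 on the other strand, and the default counting of Cell Ranger takes reads on a gene's own strand. Ddx3x, the only other tested neighbour of Gpr34, was called in none of the 4 groups. Beside Siglech, Tubgcp5 was lower *in vitro* (log2 −2.23) and in slice 1 day (−1.91) but did not pass in slice 1 week (−0.46) or slice 3 weeks (−0.32). Cyfip1, beyond Tubgcp5, was also called lower *in vitro* (−1.15) and in slice 1 day (−0.84), with −0.46 and 0.16 in the later groups. Beside Adgrg1, Adgrg3 was called higher in slice 1 day and slice 1 week, at 1.99 and 5.52 CPM against 0.101 CPM in adult. The adult values, that of slice 1 day replicate 1 (0.262 CPM) and that of slice 1 week replicate 2 are under the floor of 3 counts of their libraries, the neutrophil markers were higher in the same groups (median log2 11.68 and 12.86), and their part in it was not tested. Adgrg3 was at 0 *in vitro*, and Adgrg5 did not pass the filter. Ccdc102a, beyond Adgrg5, was called lower *in vitro* (−2.31) and in none of the slice groups.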

How the data were processed

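The authors sorted microglia, prepared 10x Genomics libraries and ran Cell Ranger, which the submitters' processing notes give as version 1.3.0 with genome build mm10. The deposited tables hold raw UMI counts per gene symbol and cell barcode, 1 table per library. The study's methods name Cell Ranger's aggregate function for its pooled table, which was not used here. Cell Ranger was run with default settings, which count reads that map to 1 gene on its own strand. Of 19637 barcodes, 19059 passed the study's limits (at most 5% of UMIs mitochondrial, at least 400 genes, at most 30000 UMIs). The study also set outlier cells aside by t-SNE and states fewer cells than were kept here, both for the slice 1 week samples, mainly 1 of them, and for the range of the others; that step was not repeated. Slice 1 week replicate 1 holds more neutrophil than microglia marker UMIs (40385 against 29737 CPM). No doublet caller was run, and cells were not clustered. Repeated symbols were summed.

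Counts were summed per library and fitted with edgeR 4.0.16 in R 4.3.3 (TMM, filterByExpr with a minimum of 10 counts, glmQLFit and glmQLFTest) in 1 model of 5 groups over 10 libraries, with 12157 genes (BCV 18.3%). A gene was called at FDR < 0.05 (Benjamini-Hochberg) and a fold change over 1.5. The SE of a log2 fold change was taken as its size divided by the square root of F. The script was tested on simulated data. Total UMIs per library set the floor, 3 counts, at 0.0756 to 7.78 CPM. Intervals cover counting error only. Cells of at least 1000 UMIs were thinned with a fixed seed. DESeq2 1.42.0, other scalings, filters, cell sets, covariates and omitted libraries were alternatives. Omitting a library left 1 in its group, so that the spread in those fits came from the other groups.

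The 5 genes and the gene lists were chosen with earlier results of these data known. Named were the 5 genes, listed partners and relatives, the 10 genes most like them and, where tested, the 2 nearest protein coding genes on either side. S100a8, Gpnmb, the members of lists named beside small counts and the gates on a share of neutrophil or monocyte UMIs were chosen after their values were seen. Gene positions and promoters are from RefSeq, and strands and Ensembl identifiers from GENCODE. A listed gene is not reported here.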

Additional observations from a re-analysis of the deposited data

How the results depend on the processing

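Over 750 alternative values of the fold change of a single gene, 712 kept their call, 20 lost it, 18 gained it and 0 changed the sign of a called value. The counts of 5 genes called lower against adult, of 5 called lower *in vitro* against slice 3 weeks and of 5 called higher from slice 1 day to slice 3 weeks stayed within 1.5 times under each alternative run. From slice 1 week to slice 3 weeks, the count of 1 gene called higher became 4 with no filter on low counts, 2 with cells thinned to 1000 UMIs, 2 in a fit of the 2 groups alone, 2 with the DESeq2 Wald test, 0 with the study label as a covariate and 0 without neutrophil and monocyte marked cells, a setting chosen after seeing the data in which the Selplg estimate was as large (1.24). As UMIs per cell it stayed at 1, with Adgrg1 in place of Selplg. It was 0 to 0 when 1 library was left out. From slice 1 day to slice 1 week, the count of 3 became 1 with thinned cells and was 1 to 3 with 1 library left out, the lowest without slice 1 day replicate 2, slice 1 week replicate 1 or slice 1 week replicate 2. For *in vitro* against slice 1 day, the count of 2 became 4 with library size alone and was 2 to 4 with 1 library left out, the highest without slice 1 day replicate 2. The causes were not tested.

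Same-numbered libraries deviated from their group means with correlations of −0.112 to 0.0941 over genes. With 2 libraries a group, these values cannot decide whether the numbers mark a shared animal or day. With the replicate block, Adgrg1 was also called from slice 1 week to slice 3 weeks (a count of 2 in place of 1) and Tmem119 for *in vitro* against slice 1 day, and no other count moved by over 1.5 times.

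The mean number of genes detected per cell follows the depth by construction. At 1800 UMIs it was 4.25 in adult, 0.401 *in vitro*, 0.618 in slice 1 day, 1.25 in slice 1 week and 2.01 in slice 3 weeks, and at 500 UMIs it was 3.03, 0.124, 0.218, 0.424 and 0.895. The planned removal of cells with markers of any other cell type was not run, since it left no cell in 2 libraries.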
